A study of Homo sapiens with 4 samples.

Results

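Nodal signalling in human embryonic stem cells was followed through 9 genes, chosen by name from the 16174 genes of the table: the ligands NODAL and GDF3, the co-receptor TDGF1, the receptor ACVR2B, the secreted inhibitors LEFTY1 and LEFTY2, the effectors SMAD2 and SMAD3, and their nuclear partner FOXH1. All 9 have a row, TDGF1 under its newer symbol CRIPTO. The cells were H9, an established line of primed embryonic stem cells grown in mTeSR1 medium, which supplies TGF-beta. Both arms carried dCas9-BFP-KRAB, in which a Cas9 that cannot cut is joined to a transcriptional repressor, under a TetO promoter that doxycycline switches on. The vector was inserted with the hyPBase transposase and the cells were kept under puromycin; no clone is named. One arm had 4 pooled guides against the long non-coding RNA gene SNHG26 and the other had non-targeting control guides. All libraries came from cells given doxycycline, for either 2 or 3 days, and PCR-amplified cDNA of their polyadenylated RNA was sequenced on a nanopore instrument. There was 1 library per arm and day, 4 in all, so a mean ± SD of an arm (n = 2) mixes the days, and that of a day mixes the arms. In bulk RNA, fewer cells of a type and less RNA per cell cannot be told apart.

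Nodal and its relative GDF3 are TGF-beta family ligands. They bind a type II receptor such as ACVR2B together with a type I receptor and the co-receptor TDGF1 (Cripto), and the receptors phosphorylate SMAD2 and SMAD3. These enter the nucleus and act on DNA with partners such as FOXH1. Among the genes they switch on are NODAL itself and the LEFTY genes, whose products block the ligands and the co-receptor, so the pathway restrains itself. In primed human stem cells the pathway is known for keeping NANOG active, and at higher dose for leading to mesendoderm.

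The ligand and co-receptor genes open the pathway, so the 250 bases before their start sites are shown, from RefSeq on GRCh38.p14. They lie at chr10:70441682-70441931 (minus strand, NODAL), chr12:7695776-7696025 (minus strand, GDF3) and chr3:46574285-46574534 (plus strand, TDGF1). Capitals mark matches on either strand to the FOXH1 core AATNNACA or to CAGAC, which is part of the SMAD-binding element.
NODAL: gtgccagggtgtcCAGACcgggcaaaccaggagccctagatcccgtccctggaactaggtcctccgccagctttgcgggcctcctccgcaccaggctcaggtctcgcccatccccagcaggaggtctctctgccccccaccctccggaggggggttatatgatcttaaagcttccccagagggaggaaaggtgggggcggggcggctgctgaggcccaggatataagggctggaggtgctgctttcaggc
GDF3: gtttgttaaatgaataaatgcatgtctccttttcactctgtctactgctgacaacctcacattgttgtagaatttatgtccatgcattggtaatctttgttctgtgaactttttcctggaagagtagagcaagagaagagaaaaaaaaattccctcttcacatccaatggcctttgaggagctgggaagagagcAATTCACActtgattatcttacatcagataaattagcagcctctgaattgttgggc
TDGF1: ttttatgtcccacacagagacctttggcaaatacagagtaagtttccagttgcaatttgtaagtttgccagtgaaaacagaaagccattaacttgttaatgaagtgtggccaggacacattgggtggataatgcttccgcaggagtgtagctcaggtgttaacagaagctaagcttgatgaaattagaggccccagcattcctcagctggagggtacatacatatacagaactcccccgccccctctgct

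The NODAL window holds 1 CAGAC, 237 bases before the start site. The GDF3 window holds 1 match to the FOXH1 core, 56 bases before the start site. The TDGF1 window shown holds neither. TDGF1 has 2 RefSeq windows, and only the more upstream is shown and described. Among 35116 RefSeq windows of the same length, 38.0% hold CAGAC and 9.88% hold AATNNACA, so these matches are common letters and a description only. No window shown holds the full FOXH1 site AATCCACA, which 0.709% of all windows hold, or the SMAD palindrome GTCTAGAC, which 0.182% hold. The motifs can overlap one another. Of the 9 genes, 6 have a RefSeq window; LEFTY1, LEFTY2 and FOXH1 have none.

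Levels are in TPM, reads per unit of length after scaling each library to a common total. For a gene spanning 10 kb, a single read added 0.653 to 0.803 TPM, depending on the library. The length is the distance along the genome, introns included, so a long gene has a lower TPM than a short one at equal reads. The targeted gene SNHG26 was listed at 0 and 0.933 TPM on days 2 and 3 with its guides, against 2.98 and 4.03 TPM with control guides. At a mean of 1.99 TPM it was among the 8274 genes tested, of which 0 passed an adjusted p of 0.05 in limma between arms. How many reads its values stand for was not worked out. Of 18 primed stem cell markers, 16 averaged 1 TPM or more, and the list summed to 2061 to 2179 TPM with the SNHG26 guides and 2170 to 2301 TPM with control guides. POU5F1 was at 1050 to 1212 TPM and SOX2 at 241 to 307 TPM, while ZIC2 was listed at 0 in all 4 libraries. Of 10 mesendoderm markers 4 have a row, and these summed to at most 3.84 TPM in any library, with EOMES and FOXA2 listed at 0 throughout. The highest sums were 24.5 TPM for neuroectoderm markers (2 of 8 with a row), 6.00 TPM for amnion and trophectoderm markers (4 of 9, with GABRP and ISL1 at 0) and 14.9 TPM for naive markers (6 of 9, with NLRP7 at 0). The part of these other cell types in the results was not tested.

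**Figure D1:**
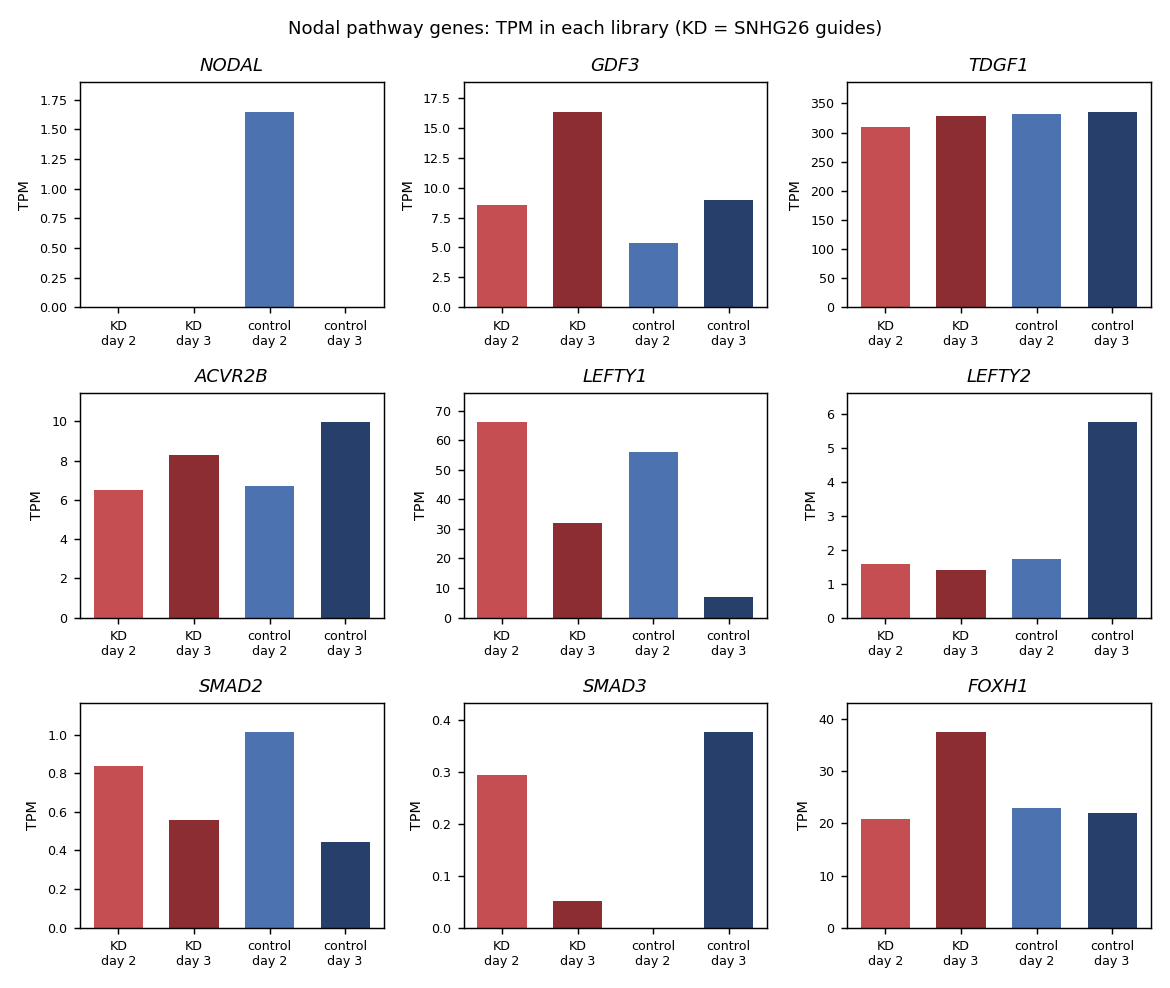
TPM (vertical axis, starting at 0 and scaled per gene) of the 9 Nodal pathway genes in the 4 libraries (horizontal axis); each bar is 1 library, red for the SNHG26 guides and blue for control guides, so there are no error bars. TDGF1 stands between 310 and 336 TPM in every library, LEFTY1 is lowest in the day 3 control library at 7.03 TPM, and NODAL has a value in 1 library only.

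Levels of the 9 genes ranged widely. By mean over the 4 libraries (± SD, n = 4 libraries of differing arm and day), the order per genomic length was TDGF1 (326.9 ± 11.8 TPM), LEFTY1 (40.3 ± 26.4), FOXH1 (25.9 ± 7.80), GDF3 (9.80 ± 4.65), ACVR2B (7.86 ± 1.62), LEFTY2 (2.62 ± 2.10), SMAD2 (0.712 ± 0.258), NODAL (0.412 ± 0.824) and SMAD3 (0.181 ± 0.183). TDGF1 ranked 332 among the 16174 genes. Its lowest library, at 309.7 TPM, lay above the highest of any other member, at 66.2 TPM. The range of LEFTY1 overlapped those of FOXH1, GDF3 and ACVR2B, and GDF3 overlapped ACVR2B. FOXH1 lay above GDF3 and ACVR2B in every library, and LEFTY2 lay below both FOXH1 and ACVR2B. LEFTY2 and SMAD2 did not overlap. SMAD2 lay above SMAD3 in every library, and NODAL, from 0 to 1.65 TPM, overlapped both of them and LEFTY2. A mean of at least 1 TPM, the condition for testing, was met by 6 of the 9; SMAD2, NODAL and SMAD3 fell below it.

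Among the ligands, NODAL (chromosome 10, 70431936 to 70447951, minus strand) was listed at 0 TPM with the SNHG26 guides on both days. The control library of day 2 had 1.65 TPM, and that of day 3 was listed at 0. The single value equals 2 reads on a span of 9746 bases, from the end of the listed gene to the RefSeq start site whose upstream window is printed above. On that span, a count of 0 (up to 3 reads, counting error only) allows 2.01 TPM in the day 3 library of the SNHG26 guides and more in the day 2 library, both above the value in the control library. No difference in NODAL was detectable at this depth, and no fold change is given.

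GDF3 (chromosome 12, 7689784 to 7695775, minus strand), the other ligand, stood at 8.52 and 16.4 TPM on days 2 and 3 with the SNHG26 guides, against 5.36 and 8.97 TPM with control guides. These values are 7, 15, 4 and 8 reads on the full gene span. The SNHG26 guide library was the higher of the pair on each day, but the arms overlapped, at 12.4 ± 5.54 and 7.16 ± 2.55 TPM (SD, n = 2). The log2 difference between arms was 0.69 (SE 0.47), with 0.58 on day 2 and 0.80 on day 3, and limma gave an adjusted p of 0.935. Day 3 was above day 2 in both arms and the days did not overlap, with a log2 difference of 0.76 (SE 0.43) and a limma adjusted p of 0.760. The ratios of TPM between libraries ran from 1.59 (95% counting interval 0.404 to 7.40, SNHG26 over control guides on day 2) to 1.92 (0.737 to 5.57, day 3 over day 2 with the SNHG26 guides), and each interval held 1. With any library left out the log2 difference ran from 0.26 to 1.12 between arms and from 0.36 to 1.16 between days, in both cases lowest without the day 3 library of the SNHG26 guides.

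The co-receptor gene TDGF1 (chromosome 3, 46574534 to 46582457, plus strand) was the most abundant member. It was at 309.7 and 329.3 TPM on days 2 and 3 with the SNHG26 guides and at 332.7 and 335.9 TPM with control guides. The SNHG26 guide libraries were both below the control libraries. The log2 difference was -0.07 (SE 0.15), with -0.10 on day 2 and -0.03 on day 3, and limma gave an adjusted p of 0.998. Between days the log2 difference was 0.05 (SE 0.13, limma adjusted p 0.940). Its reads could not be assigned to a single span; they numbered at most 336.7, 399.6, 328.2 and 396.4 on the full span and 222.1, 263.6, 216.5 and 261.4 on the shortest coding transcript of GENCODE release 29.

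TDGF1 has near-identical copies elsewhere in the genome, and how the counting split reads among them is not stated. CRIPTOP5, a processed pseudogene of 453 bases, was listed at 80.5 and 57.7 TPM with the SNHG26 guides and at 35.5 and 14.8 TPM with control guides, which are 5, 4, 2 and 1 reads. CRIPTO3, on chromosome X, had 1, 0, 1 and 1 reads. With the reads of both copies placed on the span of TDGF1, its level was 315.3 and 332.6 TPM with the SNHG26 guides and 335.8 and 337.6 TPM with control guides. The log2 difference was then -0.06 between arms (limma adjusted p 0.998) and 0.04 between days (limma adjusted p 0.950). A plain sum of TPM weights a read on 453 bases more than a read on 7924 bases, and on that sum the signs turned, to 0.11 and -0.048. The opposite strand of TDGF1 lies wholly within LRRC2, at 0.143 to 0.708 TPM, and whether strand was used in counting is not stated. By Euclidean distance between centred log2 profiles over the 4 libraries, the nearest of 1144 other genes that averaged 50 TPM or more were RPS6 (distance 0.0319), CHCHD5 (0.0413) and PSMB3 (0.0491), against a median distance of 0.405.

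ACVR2B (chromosome 3, 38453890 to 38493142, plus strand), the type II receptor, was at 6.50 and 8.29 TPM on days 2 and 3 with the SNHG26 guides and at 6.69 and 9.98 TPM with control guides. On the full span these are at most 35, 49.8, 32.7 and 58.3 reads. The arms overlapped, with a log2 difference of -0.14 (SE 0.36, limma adjusted p 0.998). Its sign turned to 0.12 without the day 3 control library and to 0.02 without the day 2 library of the SNHG26 guides. Both day 3 libraries were above both day 2 libraries, 9.13 ± 1.19 against 6.60 ± 0.136 TPM (SD, n = 2 libraries, 1 of each arm). The log2 difference between days was 0.41 (SE 0.26), with a limma adjusted p of 0.760. The antisense gene ACVR2B-AS1 overlaps it by 931 bases and had 2 reads in the day 2 control library and 0 in the others.

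The secreted inhibitor LEFTY1 (chromosome 1, 225886282 to 225911382, minus strand) had the largest log2 differences of the 6 members tested. Its levels were 66.2 and 31.9 TPM on days 2 and 3 with the SNHG26 guides, against 56.1 and 7.03 TPM with control guides. On the span of its short GENCODE transcript, 2865 bases, these values are exactly 26, 14, 20 and 3 reads; on the full listed span of 25101 bases they would come to 228, 123, 175 and 26.3. Day 2 was above day 3 in both arms, at 61.1 ± 7.13 against 19.5 ± 17.6 TPM (SD, n = 2 libraries, 1 of each arm). The ratio of day 3 to day 2 was 0.482 with the SNHG26 guides (95% counting interval 0.233 to 0.958) and 0.125 with control guides (0.0239 to 0.423). Neither interval held 1, but they compare pairs of libraries by counting error only. Across libraries the log2 difference was -1.93 (SE 0.76), with -1.03 and -2.83 in the arms, and limma gave an adjusted p of 0.760 (unadjusted 0.0650). It was -0.91 without the day 3 control library (limma adjusted p 0.465) and -2.95 without the day 3 library of the SNHG26 guides (limma adjusted p 0.159).

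Between arms, LEFTY1 was 1.18 times as high with the SNHG26 guides on day 2 (95% counting interval 0.633 to 2.23) and 4.54 times as high on day 3 (1.27 to 24.6). The arms overlapped, at 49.0 ± 24.2 and 31.6 ± 34.7 TPM (SD, n = 2). The log2 difference was 1.13 (SE 1.07, limma adjusted p 0.941). It rested on the day 3 control library with its 3 reads: without that library the difference turned to -0.28. The log2 difference between arms was 0.23 on day 2 and 2.03 on day 3, which differ by 1.80, and the crossed contrast in limma gave an adjusted p of 0.996.

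LEFTY2 (chromosome 1, 225936598 to 225941383, minus strand), the neighbouring inhibitor gene with a very similar sequence, begins 25215 bases beyond the listed end of LEFTY1. It was at 1.58 and 1.41 TPM on days 2 and 3 with the SNHG26 guides and at 1.74 and 5.77 TPM with control guides. These are 1, 1, 1 and 4 reads, on spans of 4618 and 4786 bases. The arms did not overlap, yet 3 of the libraries hold the same single read and differ only in what a read was worth. The log2 difference between arms was -0.79 (SE 0.60), with -0.09 on day 2 and -1.49 on day 3, and limma gave an adjusted p of 0.935. Between days it was 0.60 (SE 0.64, limma adjusted p 0.795), and -0.14 without the day 3 control library. The library with the fewest LEFTY1 reads, control day 3, had the most LEFTY2 reads; whether reads were exchanged between the copies in mapping was not tested. Summed, the LEFTY genes were at 67.7 and 33.3 TPM with the SNHG26 guides and at 57.8 and 12.8 TPM with control guides, in the same order as LEFTY1 alone. The log2 difference of the sum between days was -1.55 (SE 0.51, limma adjusted p 0.717, unadjusted 0.0406).

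**Figure D2:**
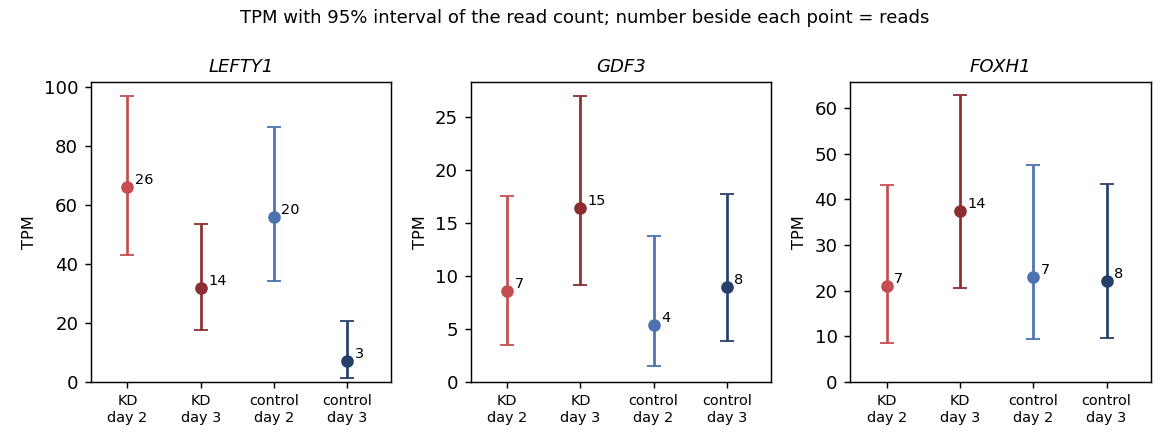
TPM (vertical axis, from 0) of LEFTY1, GDF3 and FOXH1 in the 4 libraries (horizontal axis), with bars for the 95% exact Poisson interval of the read count and the number of reads beside each point. LEFTY1 had 26 and 14 reads on days 2 and 3 with the SNHG26 guides and 20 and 3 with control guides, whereas the intervals of all 4 libraries overlap for GDF3 and FOXH1.

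The effectors were barely sampled. SMAD2 (chromosome 18, 47808957 to 47931146, minus strand) was at 0.835 and 0.555 TPM on days 2 and 3 with the SNHG26 guides and at 1.01 and 0.446 TPM with control guides. On its full span of 122190 bases the values stand for at most 14.0, 10.4, 15.4 and 8.12 reads. On its shortest coding transcript in GENCODE, 53168 bases, they come to 6.09, 4.52, 6.70 and 3.53 reads. The reads of SMAD2 could not be assigned to a single span, so how many there were is not known. Both day 3 libraries were below both day 2 libraries, with a log2 difference of -0.36. SMAD2 lay below the filter; with no filter on the level, limma gave it an adjusted p of 0.742 between days (unadjusted 0.242) and of 0.998 between arms.

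SMAD3 (chromosome 15, 67063763 to 67195173, plus strand) was at 0.295 and 0.0519 TPM with the SNHG26 guides and at 0 and 0.377 TPM with control guides. These are at most 5.31, 1.04, 0 and 7.37 reads on the full span of 131411 bases. The highest and the lowest value were both in the control arm. The log2 difference between arms was -0.01, made of 0.37 on day 2 and -0.39 on day 3. With no filter, the limma adjusted p was 0.998 between arms and 0.936 between days.

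FOXH1 (chromosome 8, 144473412 to 144475849, minus strand), the nuclear partner, was at 20.9 and 37.5 TPM on days 2 and 3 with the SNHG26 guides and at 23.1 and 22.0 TPM with control guides. These are 7, 14, 7 and 8 reads on the gene span. The day 3 library of the SNHG26 guides was the highest and the other 3 lay close together. The arms overlapped, at 29.2 ± 11.7 and 22.6 ± 0.725 TPM (SD, n = 2), with a log2 difference of 0.30 (SE 0.37, limma adjusted p 0.960). Without that library the difference turned to -0.10, and the log2 difference between days went from 0.37 to 0.00406. The log2 difference between arms was -0.13 on day 2 and 0.74 on day 3, and the crossed contrast in limma gave an adjusted p of 0.961. On day 3 the ratio between arms was 1.70 (95% counting interval 0.666 to 4.68). KIFC2, which overlaps FOXH1 on the opposite strand by 791 bases, was listed at 0 in every library.

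**Figure D3:**
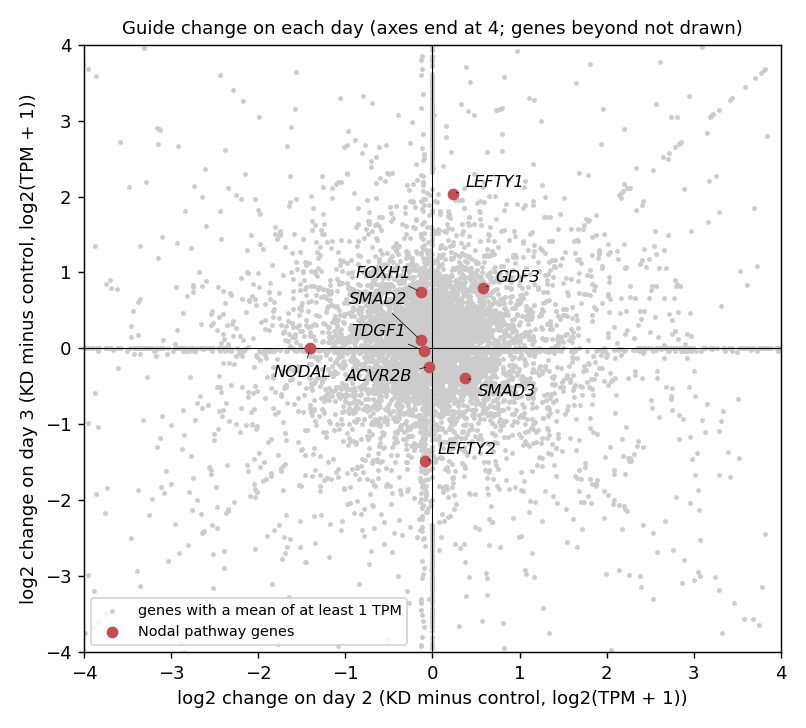
Difference between the SNHG26 guide and control libraries on log2(TPM + 1), on day 2 (horizontal axis) and day 3 (vertical axis), 1 point per gene; red points are the 9 Nodal pathway genes and grey points the genes that passed the filter, drawn up to 4 in either direction. The red points lie within the grey cloud; LEFTY1 (0.23 and 2.03) and LEFTY2 (-0.09 and -1.49) depart from 0 on day 3 in opposite directions.

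Between arms, 0 of the 6 members tested passed an adjusted p of 0.05 in limma, and 0 had an unadjusted p under 0.05. The background over 8274 genes was 0% past the adjusted threshold and 4.07% at the unadjusted one. With the replicate block, here the day, 0 of the 6 had an unadjusted p under 0.05 in limma. The lowest were GDF3 at 0.107 (SE 0.32) and LEFTY1 at 0.121 (SE 0.55), each with a limma adjusted p of 0.908. The arms did not overlap for 2 members, TDGF1 and LEFTY2, both lower with the SNHG26 guides, and for none in the other direction; over all genes tested the shares were 13.2% lower and 16.1% higher. The median log2 difference was -0.01 over all 9 members, 0.12 over the 6 tested and 0.04 over all genes tested. With 2 libraries against 2, the smallest p of an exact two-sided permutation test of a single gene is 0.333.

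Between days, 0 of the 6 passed in limma and 0 had an unadjusted p under 0.05, against 0.0363% and 6.61% of all genes tested. With the replicate block, here the arm, 1 of the 6 had an unadjusted p under 0.05, LEFTY1 at 0.0324 (limma adjusted p 0.794). GDF3 and ACVR2B were higher on day 3 without overlap, and LEFTY1 was lower without overlap, where 17.1% and 18.4% of all genes were. The median log2 difference between days was 0.08 over the 9 members, 0.39 over the 6 tested and 0.01 over all genes tested. For a difference between arms that changed from day 2 to day 3, 0 of the 6 passed and 0 had an unadjusted p under 0.05, against 0.0967% and 3.52% of all genes.

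The rest of the pathway was read from lists of 69 other genes, of which 60 have a row, 10 of them at 0 in every library, and 23 passed the filter. Of these 23, 0 passed an adjusted p of 0.05 in limma between arms, days or in the crossed contrast. At an unadjusted p under 0.05 there were 0 between arms and 2 between days, where the shares of all genes tested were 4.07% and 6.61%. The median log2 difference between arms was -0.18 over the 23, with 7 lower and 1 higher without overlap (13.2% and 16.1% of all genes tested). The median between days was -0.19, with 6 lower and 2 higher (18.4% and 17.1% of all genes tested). Of the other receptors and co-receptors, 8 have a row and 0 passed the filter.

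Of other TGF-beta family ligands, BMP4 was at 1.96 and 0.921 TPM with the SNHG26 guides and at 4.43 and 2.76 TPM with control guides. Its log2 difference between arms was -0.92 (limma adjusted p 0.935). GDF11, a relative of myostatin, was at 2.58 and 1.39 TPM against 1.70 and 0.950 TPM, lower on day 3 in both arms. Among secreted inhibitors, follistatin (FST), which binds activin, was at 11.0 and 5.27 TPM with the SNHG26 guides and at 6.48 and 3.74 TPM with control guides. Like LEFTY1, its day 3 libraries were below its day 2 libraries, with a log2 difference of -0.80 (limma adjusted p 0.760). FSTL3, a follistatin relative, was at 2.71 and 2.43 TPM against 5.98 and 5.00 TPM, a log2 difference between arms of -0.86 (limma adjusted p 0.935). Over all 4 libraries, BMP4, GDF11, FST and FSTL3 held at most 12.4, 13, 24.0 and 15.6 reads. FSTL1 was at 11.0 and 8.67 TPM against 13.7 and 12.5 TPM.

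Of the genes that process ligands, the convertase gene FURIN stood at 15.7 TPM in the day 2 control library and at most 0.439 TPM elsewhere. Its values come to at most 30.2 reads over all libraries. For FURIN, limma gave an adjusted p of 0.935 between arms and 0.760 between days. NOMO1 and NCLN encode subunits of a complex that restrains Nodal signalling. NOMO1 was at 1.72 and 0.732 TPM with the SNHG26 guides against 4.00 and 3.06 TPM with control guides, and NCLN overlapped between arms at 1.70 to 4.29 TPM. STRAP, a receptor-associated inhibitor, was at 124.6 to 147.3 TPM with a log2 difference between arms of 0.04, and the phosphatase gene PPM1A at 0.834 to 1.38 TPM.

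Inside the nucleus, DRAP1, a co-repressor that restrains FOXH1, was at 170.0 and 230.0 TPM with the SNHG26 guides and at 176.3 and 196.0 TPM with control guides. Both of its day 3 libraries lay above its day 2 libraries, with a log2 difference of 0.29 (limma adjusted p 0.760). EP300, an acetyltransferase that SMADs recruit, was at 9.18 and 12.0 TPM on day 2 and was listed at 0 in both day 3 libraries, with a limma adjusted p of 0.138 (unadjusted 0.000702). The day 2 values come to at most 241 reads in all. GTF2I was at 0.390 to 5.65 TPM. The co-repressor gene TGIF1 was at 36.5 to 45.4 TPM, TGIF2 at 1.70 to 5.89 TPM, and both overlapped between arms.

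SKIL, a feedback inhibitor that SMAD signalling switches on, was at 2.09 and 5.10 TPM with the SNHG26 guides and at 11.5 and 5.59 TPM with control guides. The arms did not overlap, with a log2 difference of -1.06 (limma adjusted p 0.935). Of the targets, NANOG was at 35.5 and 22.4 TPM against 26.4 and 27.6 TPM, a log2 difference of 0.06, and TNNT1 at 32.1 to 42.3 TPM. CYP26A1 and CER1 were named after their values were seen. CYP26A1, which degrades retinoic acid, was at 4.60 TPM (SNHG26 guides) and 3.64 TPM (control guides) on day 2. On day 3 it was at 1.48 and 1.52 TPM in turn, with a limma adjusted p of 0.730 (unadjusted 0.0421). It spans 4411 bases, and a read on a gene of 10 kb added 0.653 to 0.803 TPM, so these values stand for few reads. CER1, which encodes a secreted Nodal antagonist, was at 5.34 TPM in the day 2 control library and was listed at 0 in the others. Its span of 3010 bases is shorter still, so that value also stands for few reads. No pathway gene outside the 9 passed the adjusted threshold in either direction.

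**Figure D4:**
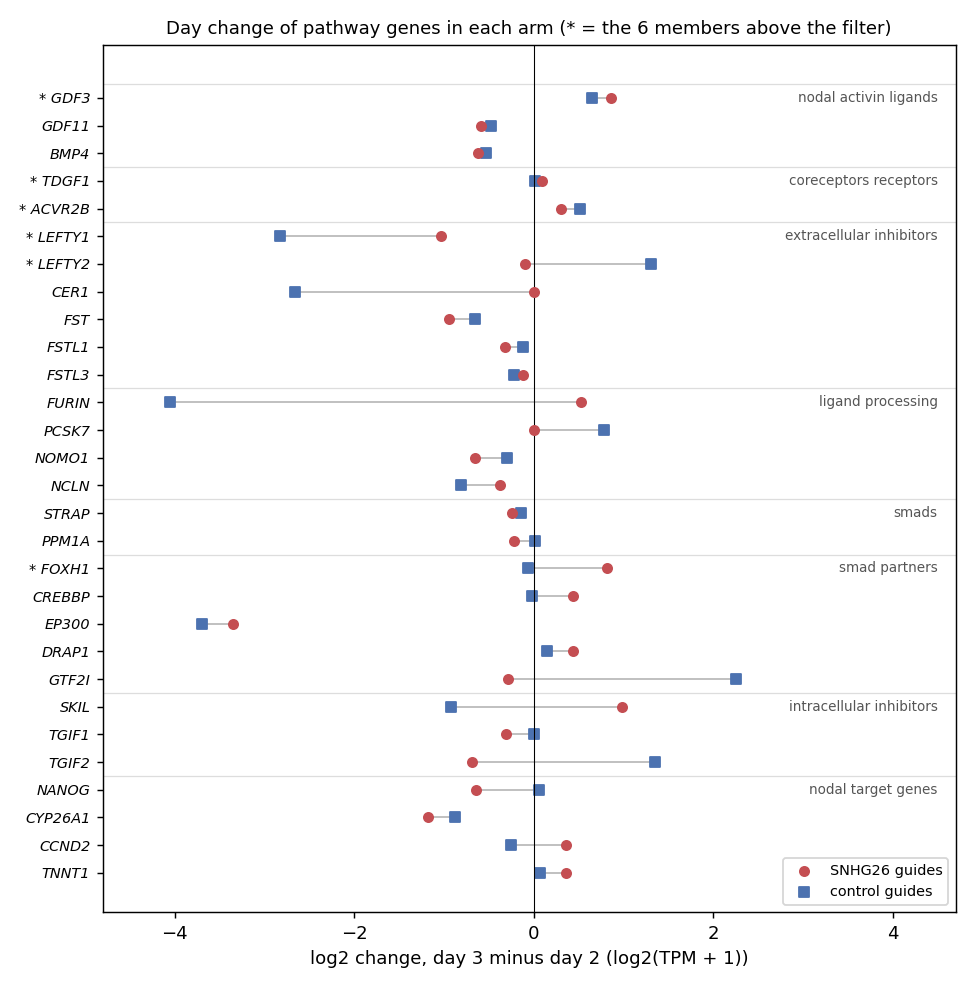
Difference between day 3 and day 2 on log2(TPM + 1) (horizontal axis) for each pathway gene that passed the filter (vertical axis, by role; members have an asterisk), with a red circle for the SNHG26 guides and a blue square for control guides. LEFTY1, FST, CYP26A1 and EP300 are among the genes left of 0 in both arms, and GDF3, ACVR2B and DRAP1 among those right of 0. FURIN, CER1 and GTF2I have the points farthest apart in the 2 arms.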

How the data were processed

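Per the submitters' processing notes, reads were aligned with minimap2 2.24-r1122 to GRCh38. The authors deposited TPM for 16174 genes, 1 column per library. The counting tool, annotation release, strand setting and filters are not given in the sources used here. The deposited Length column equals end minus start plus 1.

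The TPM of 1 read was taken as the commonest product of TPM and span in a library. On this scale 2853 of 13840 genes above 0 (20.6%) held whole reads on the listed span (tolerance 0.0001 read). The libraries held at most 1044060 and 1220270 reads (SNHG26 guides, days 2 and 3) and 947338 and 1135940 reads (control guides). Per the labels' protocols, 14 PCR cycles were used and no molecular identifiers are mentioned, so 95% intervals (exact Poisson, or exact binomial for ratios) cover counting error only.

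Differences are on log2(TPM + 1), a scale that shrinks the change of low genes. The 8274 genes averaging 1 TPM or more were tested with limma 3.58.1 (R 4.3.3; moderated with a trend, two-sided, Benjamini-Hochberg over all genes tested, threshold 0.05). Contrasts were guide arm, day, and a crossed contrast for a guide difference that changes between days. Nothing names separate cultures, so p-values measure the spread between libraries, which may be technical. In the main fits that spread also holds the difference between days for the arm contrast, and between arms for the day contrast. The replicate block takes that difference out of these contrasts. The script was tested on simulated counts for the arm contrast only, without a day difference. That test does not give the power to find changes in the members.

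Alternatives were other pseudocounts (0.1, 5), other filters (none, 5 TPM), other scalings (quantile, median ratio), no trend, a replicate block, and leaving out each library. Sums over similar copies, and copy reads placed on the span of TDGF1, were added after seeing the data. Named genes are SNHG26, the 9 members, from each pathway list the 3 highest others and any past the threshold, and the 3 genes above 50 TPM most like the highest member. CYP26A1 and CER1 were named after their values were seen, and markers, copies and overlapping genes beside the results they touch. Members and lists were chosen with earlier results of these data known. Sequences are RefSeq's (GRCh38.p14) and transcript spans GENCODE's (release 29).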

Additional observations from a re-analysis of the deposited data

Results flagged for a closer look

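For 2 members below the filter, the difference between arms had opposite signs on the 2 days, 1 pair of libraries each. For SMAD2 the log2 difference went from -0.13 on day 2 to 0.11 on day 3, a step of 0.24. For SMAD3 it went from 0.37 to -0.39, a step of -0.76. Neither difference was tested in the main comparison, since both genes lay below 1 TPM. Without the filter on the level, the crossed contrast in limma gave adjusted p-values of 0.993 for SMAD2 and 0.888 for SMAD3 (unadjusted 0.749 and 0.0270).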

How the results depend on the processing

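No member passed an adjusted p of 0.05 in limma between arms or between days under any alternative that tested it; the lowest adjusted p was 0.159, for LEFTY1 between days. Of 214 recomputed differences of single members, 17 changed sign, 8 of them in members tested and 9 in SMAD2 and SMAD3, which lay below the filter. A plain TPM sum with its copies turned TDGF1 to 0.11 between arms and -0.048 between days. That turn comes from the length weighting of 12 reads on the 453 bases of CRIPTOP5, since with the copy reads on its own span TDGF1 kept its signs (-0.06 and 0.04). Leaving out 1 library gave -0.40 to 0.12 for ACVR2B, -0.28 to 2.55 for LEFTY1, 0.26 to 1.12 for GDF3, -1.44 to -0.13 for LEFTY2 and -0.10 to 0.71 for FOXH1 between arms. Between days it gave -2.95 to -0.91 for LEFTY1, 0.36 to 1.16 for GDF3, 0.00406 to 0.75 for FOXH1, -0.14 to 1.35 for LEFTY2 and -0.000502 to 0.10 for TDGF1. There, a lone library is assumed to vary like the others. The median over the 9 members between arms was -0.10 to 0 with a library left out. Between days it was 0.39 and 0.0504 with pseudocounts of 0.1 and 5, 0.0331 after quantile normalization, and -0.11 to 0.27 with a library left out.

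The count of genes changed between arms was 0 under every alternative run, with 337 at an unadjusted p under 0.05 in limma and 170 (5 TPM or more) to 681 (without the day 3 control library) under the alternatives. The unadjusted counts ran from 355 to 880 between days and from 165 to 655 in the crossed contrast. The 3 genes changed between days fell to 0 with a pseudocount of 0.1 or 5, without the filter, after quantile normalization, without the trend, and with any library left out (0 to 0). The 8 genes of the crossed contrast became 14 with a pseudocount of 0.1 and 13 at 5 TPM or more. They fell to 0 with a pseudocount of 5, without the filter, without the trend, and with any library left out (0 to 0). With the replicate block, 0 genes passed between arms, 0 between days and 0 in the crossed contrast. The shared number is the day, and deviations of same-day libraries correlated at 0.0464 over 8274 genes. The cause of these shifts was not tested. Of GDF3, LEFTY1 and FOXH1, at 3 to 26 reads, LEFTY1 alone had counting intervals of a ratio that excluded 1.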

Other observations

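Several core pathway genes lay below the filter and belong to no comparison. INHBA, which encodes the activin A subunit, was listed at 0 in both SNHG26 guide libraries but had 0.725 and 0.606 TPM with control guides. SMAD4, the common partner of the receptor-activated SMADs, was listed at 0 in both SNHG26 guide libraries but had 0.161 and 0.269 TPM with control guides. Of the receptors, ACVR1B was at 1.58 and 0.288 TPM with the SNHG26 guides and at 0.708 and 0.592 TPM with control guides. TGFBR1 was listed at 0 in 2 libraries and reached at most 0.773 TPM, and ACVR2A was at 0.0783 to 0.281 TPM. No difference was tested for these genes.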
